A study of Mus musculus with 15 samples.

Results

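Focal adhesions are the plaques by which a cell holds on to the matrix, and the genes described here encode proteins of these plaques and of the actin filaments that end in them. The 33 genes were listed by name and by no measured value, although earlier results of these data were known when the list was made, and are *Vcl*, *Zyx*, *Tln1*, *Flna*, *Actn1*, *Actn4*, *Pxn*, *Ptk2*, *Ilk*, *Parva*, *Lima1*, *Lpp*, *Pdlim5*, *Pdlim7*, *Csrp1*, *Csrp2*, *Fhl1*, *Fhl2*, *Tes*, *Palld*, *Synpo2*, *Nexn*, *Fermt2*, *Tns1*, *Tns3*, *Actb*, *Actg1*, *Srf*, *Wdr1*, *Cfl1*, *Pfn1*, *Tpm3* and *Tpm4*. Each of the 33, of 23462 genes named on the microarray, had a probe, and together they held 59 of its 56605 distinct probes, 15 genes with 1 probe and 18 genes with several. Where a gene had several probes, its values come from the probe with the highest mean over all arrays, and the calls on which its probes disagreed are stated.

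The study looked for a gene signature of the polarization of fibroblasts, which it induced with cytokines. The cells were mouse embryonic fibroblasts (MEFs) of the line Balb/c/3T3 clone A31, an immortalized line that is 1 clone, so that the arrays measured 1 genotype in every group. RNA came from 3 untreated samples (controls) and from 3 samples of each of 4 treatments, and each of the 15 was hybridized to a 1-color array. TNFα was given at 10 ng/ml, TGFß1 at 5 ng/ml and IL-1β at 1 ng/ml. IL-6 was given at 20 ng/ml together with its soluble receptor, sIL-6Rα, at 25 ng/ml. Control, TNFα and TGFß1 arrays were described as made after 24 h, whereas the labels give 24 or 72 h for every sample, so that the time of the IL-1β and IL-6 arrays is not known here. An array is named by its treatment with its label number.

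A level below is the log2 brightness of a probe minus the 75th percentile of its array, so that a gene at 0 was as bright as the probe at that percentile and a difference of 1 is a fold of 2. A gene was called where the limma q-value (the Benjamini-Hochberg adjusted p over all 29334 probes tested) was below 0.05 and the fold-change was at least 1.5 in either direction. The 15 arrays lay on 2 slides, and arrays of a group correlated more closely on the same slide (r 0.990 to 0.995, 5 pairs) than across slides (r 0.977 to 0.985, 10 pairs). On slide 1 lay controls 1 and 11, arrays 5 and 10 of IL-1β, arrays 3 and 8 of IL-6, TGFß1 7 and TNFα 14, and on slide 2 the other 7. The label numbers also form 3 runs of 5, each with 1 array of every group. All 10 fibroblast markers examined were well above background on all 15 arrays (summed level 10.9 to 11.2 in controls, 10.3 to 10.6 with TNFα, 10.8 to 11.2 with TGFß1), *Ptprc* and *Adgre1* of the leukocyte list and *Cdh5*, *Kdr*, *Tek* and *Emcn* of the endothelial list on none. *Csf1r*, *Itgam*, *Cd68* and *Cd14* of the 7 leukocyte markers and *Pecam1* of the 5 endothelial markers were well above background on all 15.

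Integrins bind the matrix outside the cell, and talin and kindlin bind their tails inside. Vinculin then ties talin to actin, paxillin and focal adhesion kinase pass signals on, and the complex of integrin-linked kinase with parvin and the tensins makes further links to filaments. Proteins with LIM domains, such as zyxin and testin, gather where filaments are under tension, while filamin, α-actinin, palladin and nexilin cross-link the filaments of stress fibres. The supply of actin feeds back on these genes: as monomers are used up, the cofactor MRTF is set free, and with serum response factor (SRF) it binds the CArG box in the promoters of actin and adhesion genes. Fibroblasts that turn into contractile myofibroblasts are known for large adhesions and thick stress fibres.

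The SRF link was looked up in the sequence of the promoters, which is not a measured level. The list holds *Srf* itself, and whether known targets of SRF guided the choice of names is not stated. The shares below are therefore a description of the list. RefSeq (build GRCm38.p6) gave 36 promoter windows, from 250 bases before to 50 bases after a transcript start, for 27 of the 33 genes. *Actb*, *Csrp2*, *Nexn*, *Parva*, *Ptk2* and *Pxn* were not matched. A CArG box stood in 8 of the 36 windows (22.2%) and in 7 of the 27 genes, against 535 of 32851 windows of all mouse genes (1.63%). The 7 genes were *Actg1*, *Fermt2*, *Fhl1*, *Fhl2* (in both of its windows), *Lima1*, *Srf* (2 boxes) and *Vcl*. The motif GGAATG, searched on both strands as the core bound by TEAD factors, stood in 6 of the 36 windows (16.7%) against 14.7% of all windows. Such a match is a run of letters and was not tested for binding. The 250 bases before the start are given for 5 genes that the results below turn on, 5′ to 3′ along the gene's strand and with the CArG box in capitals. They lie at chr17:46556163-46556412 (minus strand, *Srf*, boxes from -82 and -62, counted from the start), chr11:120348496-120348745 (minus strand, *Actg1*, from -90), chr14:20929148-20929397 (plus strand, *Vcl*, from -227), chr1:43163962-43164211 (minus strand, *Fhl2*, from -31) and chr15:99820150-99820399 (minus strand, *Lima1*, from -47). Which start the cells used was not measured.
Srf: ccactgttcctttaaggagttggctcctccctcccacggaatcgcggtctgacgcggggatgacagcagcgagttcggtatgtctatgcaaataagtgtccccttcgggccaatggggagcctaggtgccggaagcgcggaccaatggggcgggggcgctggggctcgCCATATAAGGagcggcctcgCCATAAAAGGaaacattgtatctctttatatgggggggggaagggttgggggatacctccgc
Actg1: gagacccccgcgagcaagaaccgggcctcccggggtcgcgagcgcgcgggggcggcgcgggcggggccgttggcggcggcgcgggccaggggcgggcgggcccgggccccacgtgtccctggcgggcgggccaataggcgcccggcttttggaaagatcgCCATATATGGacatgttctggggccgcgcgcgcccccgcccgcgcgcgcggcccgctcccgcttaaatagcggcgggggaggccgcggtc
Vcl: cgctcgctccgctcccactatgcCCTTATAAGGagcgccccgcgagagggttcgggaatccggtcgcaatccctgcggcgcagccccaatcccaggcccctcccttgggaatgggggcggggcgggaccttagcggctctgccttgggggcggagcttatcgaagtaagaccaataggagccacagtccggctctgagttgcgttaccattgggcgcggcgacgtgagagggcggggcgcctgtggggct
Fhl2: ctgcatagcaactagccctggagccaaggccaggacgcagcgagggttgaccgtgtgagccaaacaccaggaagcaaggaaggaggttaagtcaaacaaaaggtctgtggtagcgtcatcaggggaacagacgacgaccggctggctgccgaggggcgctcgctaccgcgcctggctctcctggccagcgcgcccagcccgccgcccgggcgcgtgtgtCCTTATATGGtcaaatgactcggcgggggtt
Lima1: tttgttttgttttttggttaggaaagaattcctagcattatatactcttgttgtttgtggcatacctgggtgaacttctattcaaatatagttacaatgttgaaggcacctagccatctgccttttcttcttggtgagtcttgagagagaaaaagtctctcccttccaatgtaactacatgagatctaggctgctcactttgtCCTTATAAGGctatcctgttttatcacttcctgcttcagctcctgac

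*Synpo2*, which encodes an actin-bundling protein of muscle, had no probe well above background on every array of a group, the only such member, and it was not tested. The probe with its higher mean was well above background on control 6 and control 11, on IL-1β 10, on IL-6 8 and IL-6 13, and on no TNFα or TGFß1 array. The other 32 genes were well above background on all 15 arrays, so that none of them entered through a group in which it was high.

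Among the 32 genes tested, TNFα changed few and TGFß1 raised more. IL-1β and IL-6 left none past the threshold, where 0.232% and 0.0580% of all probes were called, so that none of 32 is near the background. MEFs treated by TNFα had 4 called genes (12.5% of 32), 1 higher and 3 lower than in controls, where 10.0% of all probes tested were called (4.09% higher, 5.96% lower). MEFs treated by TGFß1 had 7 called genes (21.9%), 6 higher and 1 lower, where 17.9% of all probes were called (7.51% higher, 10.4% lower). Without the fold criterion 14 genes passed with TGFß1, and 24.3% of all probes did. The direct comparison of the 2 cytokines called 8 genes (25.0%), all 8 lower with TNFα, where 11.8% of all probes were called (6.61% higher, 5.17% lower). The median log2 fold-change of the 32 genes was -0.09 with TNFα, 0.36 with TGFß1 and -0.38 between TNFα and TGFß1, beside 0.04, 0.07 and -0.04 over all probes. The median with TNFα was not stable in sign, at -0.21 without control 6, -0.22 without TNFα 14 and 0.0051 without control 11, and that with TGFß1 was 0.23 without control 6. In bulk RNA, fewer cells of a type and less RNA per cell cannot be told apart. The medians and counts over all probes are the background against which these counts can be read, and the list itself was given no test.

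**Figure D1:**
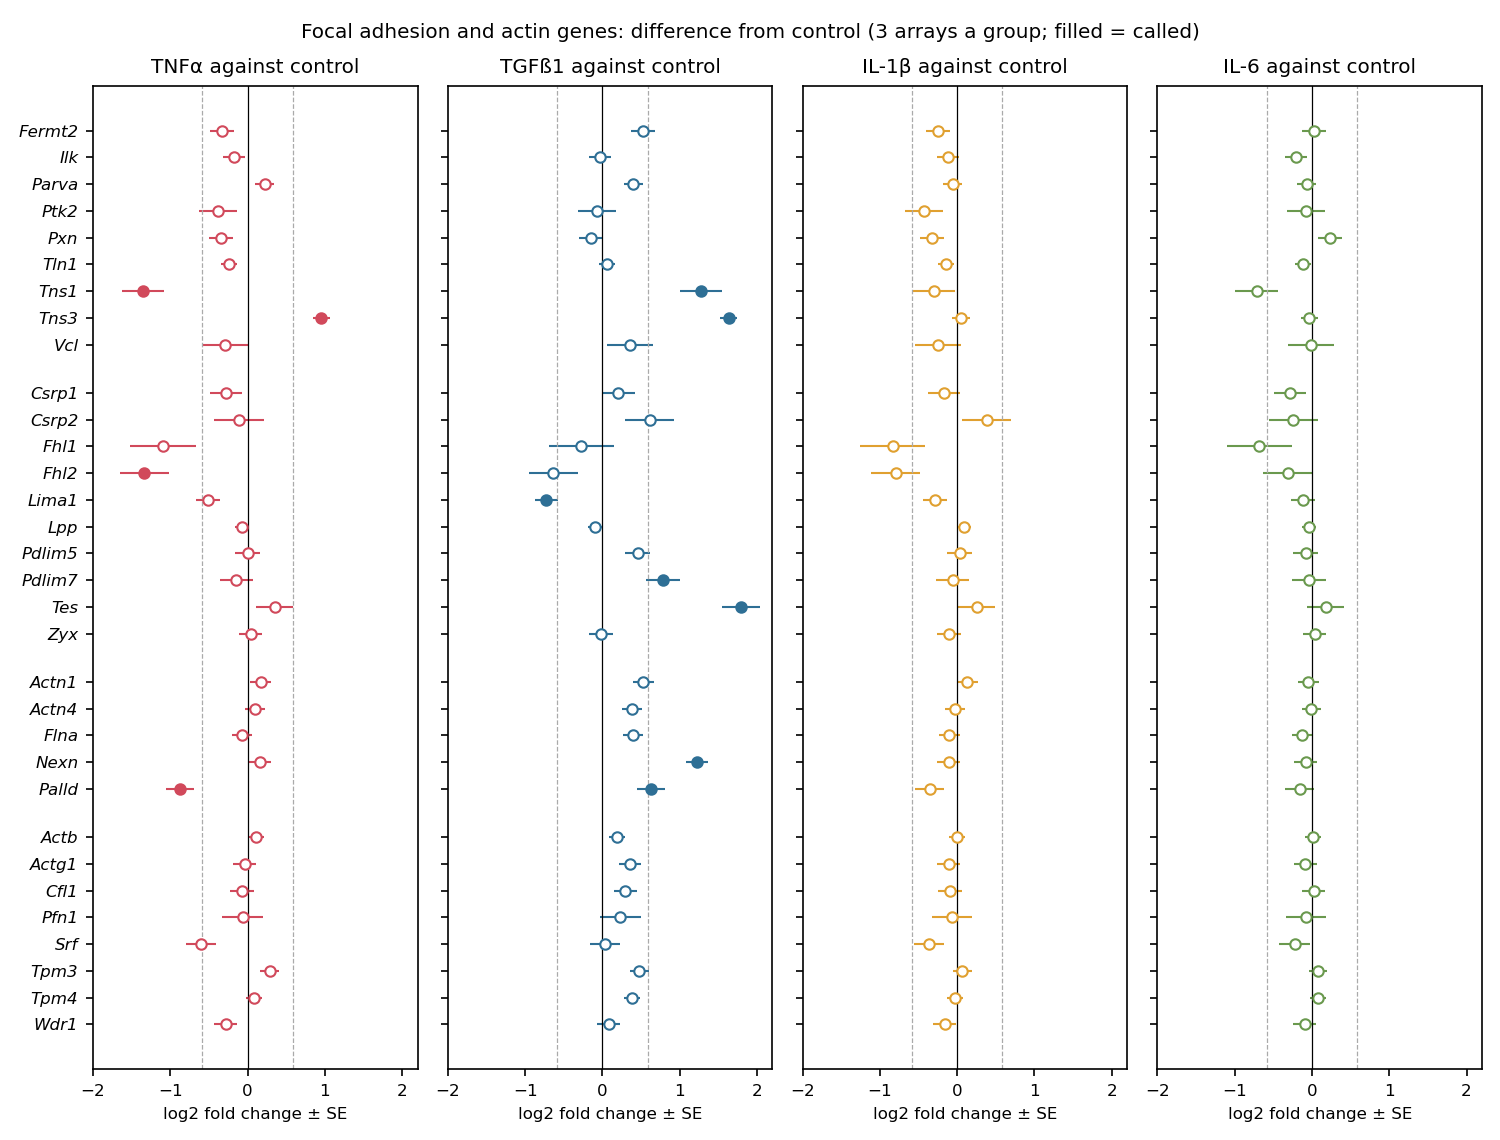
Log2 fold-change against control (x axis, ± SE from limma) of the 32 genes tested (y axis, in 4 blocks by role: integrin-linked plaque, LIM-domain proteins, cross-linkers, and actins with turnover genes, tropomyosins and *Srf*) for TNFα, TGFß1, IL-1β and IL-6, 3 arrays a group. Filled points are called genes and dashed lines mark a fold-change of 1.5; filled points appear for 4 genes with TNFα and 7 with TGFß1, and for none with IL-1β or IL-6.

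The overlap of arrays gave a similar picture without a threshold of size. With TGFß1, the 3 arrays lay above all controls for 14 of the 32 genes and below them for 3 (53.1% together, against 38.8% of all probes, 19.9% above and 18.9% below). With TNFα the counts were 2 above and 6 below (25.0%, against 28.9% of all probes, 13.1% above and 15.8% below). Between the 2 cytokines, all TNFα arrays lay below all TGFß1 arrays for 22 of the 32 genes (68.8%, against 18.5% of all probes) and above them for none (15.8% of all probes, and 34.2% without overlap).

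**Figure D2:**
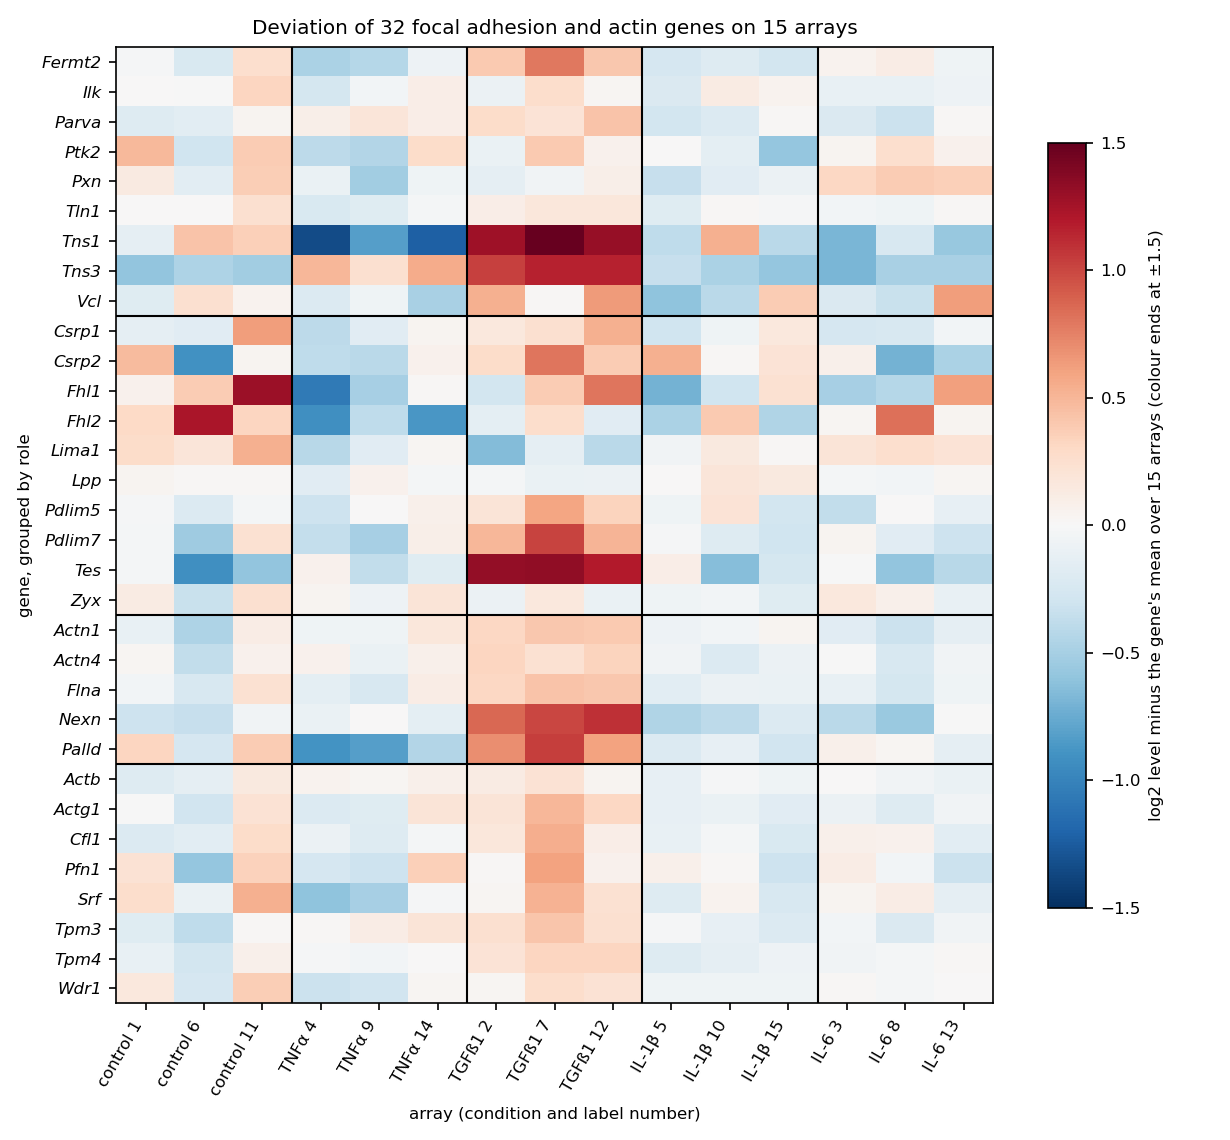
Level of each gene on each array minus the gene's mean over the 15 arrays (colour, log2, ending at ±1.5), with genes in rows by role and arrays in columns by condition. The TGFß1 columns are red for most rows, with *Tns1*, *Tns3*, *Tes*, *Nexn* and *Palld* the deepest; control 11 lies above control 6 in most rows.

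The tensins stood out in the integrin-linked plaque, where 2 of the 9 genes were called with each of TNFα and TGFß1 (10.0% and 17.9% of all probes). Tensin 1 (*Tns1*), which binds actin and the tails of β integrins in mature, fibrillar adhesions, had levels of 2.42, 2.98 and 2.91 in controls 1, 6 and 11. The levels were 1.21, 1.72 and 1.33 in MEFs treated by TNFα and 3.82, 4.46 and 3.86 in MEFs treated by TGFß1. Every TNFα array thus lay below every control and every TGFß1 array above. *Tns1* fell with TNFα (log2 fold-change -1.35 ± 0.27 SE, q = 0.00657) and rose with TGFß1 (1.28 ± 0.27, q = 0.00532), and the cytokines differed by -2.63 ± 0.27 (q = 3.26e-05), a 6.19-fold lower level with TNFα. A second *Tns1* probe was called in the same directions, at -0.72 with TNFα and 1.94 with TGFß1. With IL-1β the levels were 2.17, 3.09 and 2.15, which overlapped the controls, and with IL-6 they were 1.86, 2.31 and 1.98, all below the controls but not called (-0.72 ± 0.27, q = 1.00).

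Tensin 3 (*Tns3*), a relative found in adhesions of many cell types, rose with both cytokines. Its levels were 3.14, 3.27 and 3.21 in controls, 4.23, 3.97 and 4.29 with TNFα, and 4.76, 4.89 and 4.88 with TGFß1. The 3 groups did not overlap. The rise was 1.94-fold with TNFα (log2 0.96 ± 0.11, q = 0.00017) and 3.102-fold with TGFß1 (1.63 ± 0.11, q = 2.65e-06), and TNFα arrays stayed below TGFß1 arrays by 0.68 ± 0.11 (q = 0.00132), a call made by 1 of the 3 *Tns3* probes. With IL-1β the levels lay between 3.15 and 3.38 and with IL-6 between 3.04 and 3.24, overlapping the controls. All 3 *Tns3* probes were called with TGFß1 and 2 of the 3 with TNFα. Of the tensins not on the list, *Tns2* fell with TNFα (-1.58 ± 0.22, q = 0.000589), as *Tns1* did. Chosen after their values were seen, *Tns2* also fell with TGFß1 (-1.59 ± 0.22) and *Tns4* fell with TGFß1 (-1.02 ± 0.28).

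**Figure D3:**
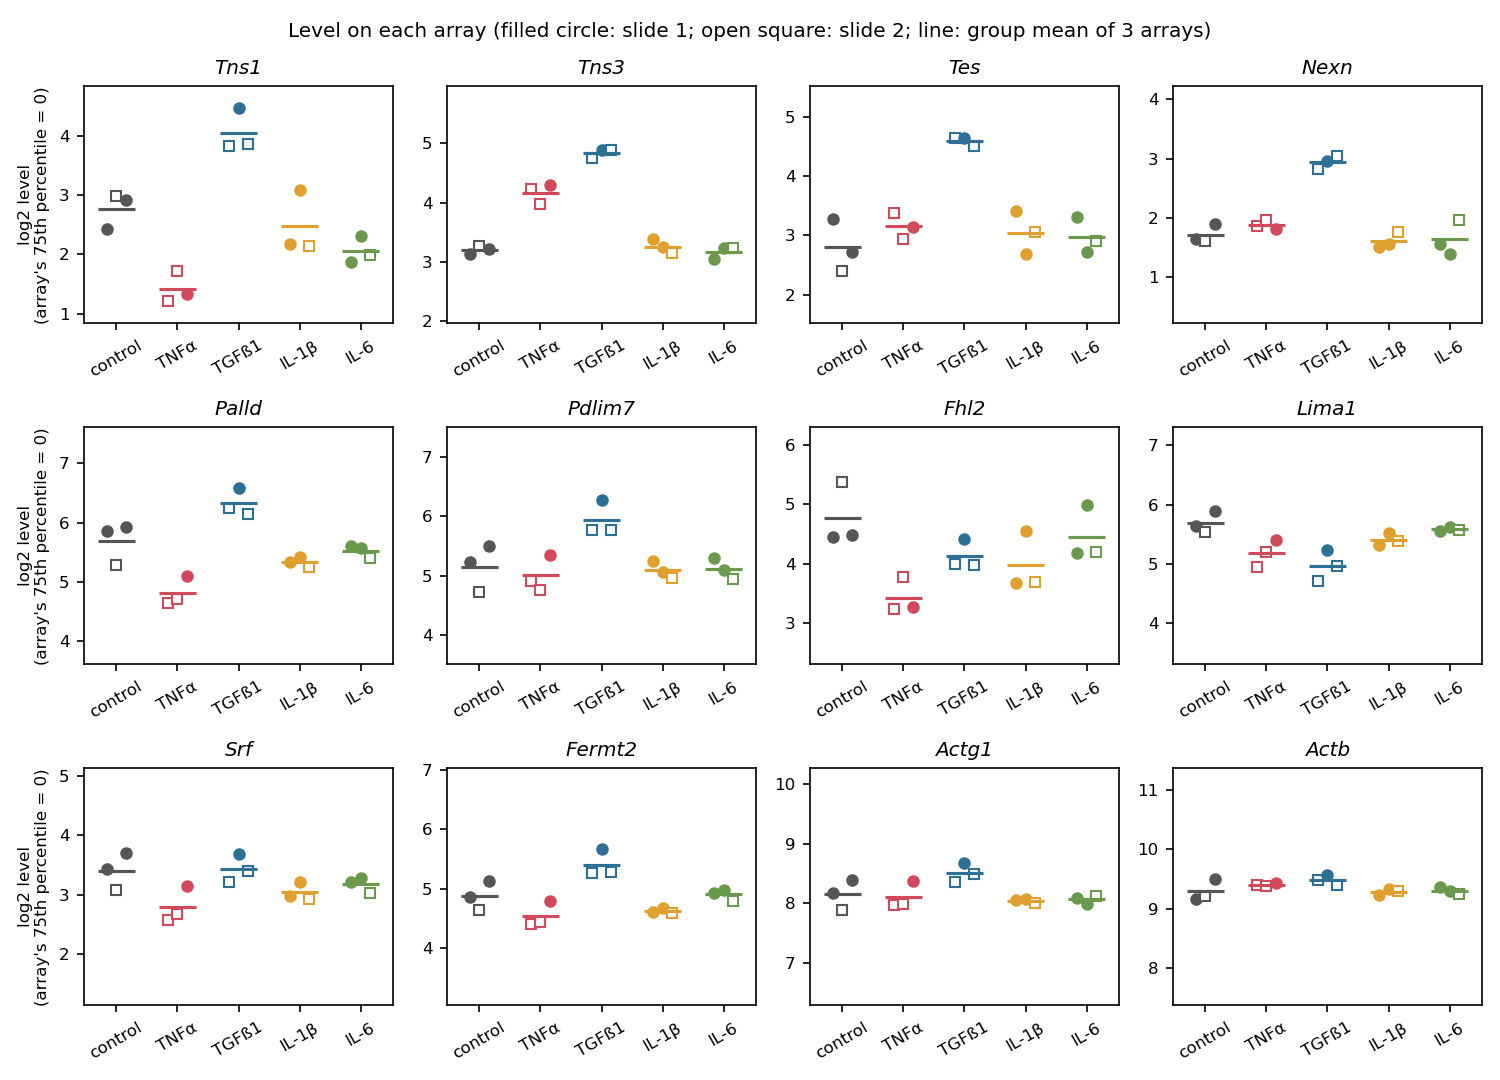
Log2 level (y axis, the array's 75th percentile is 0, each panel with its own offset) of 12 genes on each of the 15 arrays by condition (x axis), with filled circles for slide 1, open squares for slide 2 and a line at the mean of 3 arrays. *Tns1* and *Palld* lie below control with TNFα and above it with TGFß1, *Tns3* is above control with both, and *Actb* is nearly level.

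The other plaque genes changed less. Kindlin 2 (*Fermt2*), which activates integrins together with talin, passed the q-value but not the fold with TGFß1 (0.53 ± 0.16, q = 0.0274) and was called between the cytokines, lower with TNFα (-0.85 ± 0.16, q = 0.00235). *Parva*, which encodes the actin-binding partner of integrin-linked kinase, was 0.40 ± 0.12 higher with TGFß1 (q = 0.0329), below the fold threshold, but its second probe gave -0.15, and with TNFα the probes gave 0.22 and -0.28, not called. Vinculin (*Vcl*) had a log2 fold-change of -0.29 with TNFα and 0.36 with TGFß1, neither past the threshold, and its arrays ranged from 4.48 to 5.72. With the slide as a block, *Vcl* was also called between the cytokines (-0.65, q = 0.00662). Talin (*Tln1*) varied little, from 6.53 to 7.01 over the 15 arrays, with all TNFα arrays below the controls (-0.23 ± 0.10, q = 0.176). The kinases *Ilk* (-0.18 with TNFα, -0.04 with TGFß1) and *Ptk2*, focal adhesion kinase (-0.38 and -0.07), and paxillin (*Pxn*, -0.35 and -0.15) were not called. A second *Pxn* probe gave 0.29 with TGFß1.

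Of the 10 LIM-domain genes, 1 was called with TNFα and 3 with TGFß1 (10.0% and 17.9% of all probes). Testin (*Tes*), a LIM protein of adhesions and stress fibres, showed the largest rise of the 32 genes with TGFß1. Its levels were 3.28, 2.39 and 2.72 in controls and 4.63, 4.64 and 4.50 with TGFß1, and the TGFß1 arrays lay far above the spread of the controls. The rise was 3.47-fold (1.79 ± 0.24, q = 0.000256). With TNFα the levels were 3.38, 2.94 and 3.13, which overlapped the controls (0.35 ± 0.24, q = 0.393), and the TNFα arrays lay 1.44 ± 0.24 below the TGFß1 arrays (q = 0.00123). With IL-1β (2.68 to 3.41) and IL-6 (2.72 to 3.30) the arrays also overlapped the controls.

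*Pdlim7* encodes Enigma, a PDZ-LIM protein that docks on actin bundles. Its levels were 5.23, 4.73 and 5.49 in controls and 5.76, 6.27 and 5.77 with TGFß1, without overlap, a rise of 0.79 ± 0.22 (1.72-fold, q = 0.0198). The call was lost without control 6 (0.58, q = 0.0769), without TGFß1 7 (0.62, q = 0.0779) and in a fit of controls and TGFß1 alone (q = 0.0745). With TNFα the levels were 4.91, 4.76 and 5.34, -0.14 ± 0.22 from control, and the cytokines differed by -0.93 ± 0.22 (q = 0.0107). A second *Pdlim7* probe was not called in either comparison (0.53 with TGFß1, -0.72 between the cytokines).

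The falls of this group came from *Fhl2* and *Lima1*. *Fhl2*, an adaptor of focal adhesions and a coregulator of SRF, had levels of 4.45, 5.37 and 4.48 in controls and 3.24, 3.78 and 3.28 with TNFα. All TNFα arrays lay below all controls, among which control 6 stood high. *Fhl2* fell 2.53-fold with TNFα (-1.34 ± 0.32, q = 0.0154), and it lost the call without control 6 (-1.04, q = 0.0569), without TNFα 4 (-1.24, q = 0.0679) or without TNFα 14 (-1.26, q = 0.0522). With TGFß1 its levels were 4.00, 4.42 and 3.98, all just below the controls and not called (-0.63 ± 0.32, q = 0.170), although called with slide and run as blocks (-0.65, q = 0.000732), and with IL-1β (3.68, 4.55, 3.70) and IL-6 (4.19, 4.98, 4.20) they overlapped the controls. *Lima1* encodes EPLIN, which stabilizes actin bundles. It fell with TGFß1 from 5.69 ± 0.18 (SD, n = 3) to 4.97 ± 0.26 (-0.72 ± 0.15, q = 0.00501). With TNFα *Lima1* passed the q-value but not the fold (-0.51 ± 0.15, q = 0.0467), and the cytokines did not differ past the threshold (0.21 ± 0.15, q = 0.439).

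The remaining LIM genes were not called with any cytokine in the fit without a block. *Fhl1* had a log2 fold-change of -1.09 ± 0.42 with TNFα (q = 0.117) and was called with slide and run as blocks (-1.07, q = 0.000194), and its 15 arrays ranged over 2.35, the widest of the 32 genes after *Tns1*. *Csrp2*, a muscle LIM protein of smooth muscle, was 0.62 ± 0.32 higher with TGFß1 (q = 0.184), and with the slide as a block it was called (0.77, q = 0.0382). *Pdlim5* reached 0.46 ± 0.16 with TGFß1 (q = 0.0581). *Csrp1* (0.21 with TGFß1), zyxin (*Zyx*, -0.02) and *Lpp*, a zyxin relative (-0.10), stayed near the controls, and *Lpp* had the narrowest range of the 32 genes, 0.35 over 15 arrays.

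The cross-linkers of stress fibres were higher with TGFß1. All 5 genes tested lay above the controls on all 3 TGFß1 arrays (19.9% of all probes) and passed the q-value (24.3% of all probes). Their median log2 fold-change was 0.53, and 2 of the 5 were called (17.9% of all probes). Nexilin (*Nexn*), an actin-binding protein of adhesions and of the Z-disc of muscle, had levels of 1.65, 1.61 and 1.90 in controls and 2.82, 2.97 and 3.05 with TGFß1. The groups were far apart, a rise of 2.34-fold (1.23 ± 0.15, q = 0.000128), and a second probe also gave 1.23. With TNFα the levels were 1.86, 1.96 and 1.81, overlapping the controls (0.16 ± 0.15, q = 0.547), and 1.07 ± 0.15 below TGFß1 (q = 0.000291). With IL-1β (1.51 to 1.75) and IL-6 (1.40 to 1.96) no array approached those of TGFß1.

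Palladin (*Palld*), a scaffold that holds α-actinin in stress fibres, had levels of 5.86, 5.29 and 5.92 in controls. They were 4.64, 4.71 and 5.10 with TNFα and 6.24, 6.58 and 6.15 with TGFß1, so that neither treated group overlapped the controls and they lay on opposite sides of them. *Palld* fell with TNFα (-0.87 ± 0.18, q = 0.00774) and rose with TGFß1 (0.63 ± 0.18, q = 0.0242), and the cytokines differed by -1.505 ± 0.18, 2.84-fold (q = 0.000107). The rise with TGFß1 was the less firm: it fell below a fold of 1.5 or a q-value of 0.05 without control 6, without TGFß1 2 or without TGFß1 7 (highest q = 0.0915), while a second probe gave 0.78 (q = 0.00977). The remaining probe, on another transcript, had -0.25 with TNFα, 0.49 with TGFß1 and -0.74 between the cytokines, none of them called. With IL-1β the levels were 5.33, 5.42 and 5.25 and with IL-6 5.61, 5.57 and 5.41, overlapping the controls.

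α-Actinin and filamin passed the q-value with TGFß1 at less than 1.5-fold. The log2 fold-change was 0.53 ± 0.14 for *Actn1* (q = 0.0143), 0.38 ± 0.13 for *Actn4* (q = 0.0435) and 0.39 ± 0.13 for *Flna* (q = 0.0446). With TNFα the same genes had 0.17, 0.10 and -0.08, with q-values of 0.480 to 0.754. Only *Flna* of the 3 also passed the q-value between the cytokines (-0.47 ± 0.13, q = 0.0279). With 1 array left out, *Actn4* with TGFß1 had a lowest change of 0.24 and a highest q-value of 0.14, so that it no longer passed. *Actn1* then had 0.38 and 0.0470.

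None of the 8 genes for actin, its turnover, tropomyosin and SRF was called against control. Of all probes 10.0% were called with TNFα and 17.9% with TGFß1, so that 0 of 8 is not far from the background. β-Actin (*Actb*), often used as a reference gene, had levels of 9.17, 9.22 and 9.50 in controls, 9.41, 9.38 and 9.43 with TNFα, and 9.48, 9.58 and 9.40 with TGFß1. With IL-1β they were 9.23, 9.34 and 9.30, and with IL-6 9.36, 9.30 and 9.26. The groups overlapped the controls throughout, and the largest difference from control was 0.19 ± 0.11 with TGFß1 (q = 0.215). γ-Actin (*Actg1*), the other cytoplasmic actin, had 8.17, 7.88 and 8.39 in controls, 7.97, 7.99 and 8.37 with TNFα, and 8.36, 8.67 and 8.48 with TGFß1. TGFß1 2 lay within the range of the controls, and the difference of 0.36 ± 0.15 was not past the threshold (q = 0.0974), although it passed the q-value with the slide as a block (0.43, q = 0.0150). Its other probes gave 0.55 and -0.02. With IL-1β (8.05, 8.07, 8.00) and IL-6 (8.09, 7.98, 8.11) *Actg1* stayed within the range of the controls.

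*Srf* itself had levels of 3.43, 3.08 and 3.70 in controls, 2.57, 2.67 and 3.15 with TNFα, and 3.21, 3.69 and 3.40 with TGFß1. With IL-1β they were 2.98, 3.22 and 2.93, and with IL-6 3.22, 3.29 and 3.03. TNFα 14 overlapped control 6, and the difference of -0.61 ± 0.20 was not past the threshold (q = 0.0629). It was called without control 6 (-0.77, q = 0.0310), without TNFα 14 (-0.78, q = 0.0269) and under 3 other background corrections or scalings (-0.63 to -0.62, q 0.0257 to 0.0366). It was weaker without control 11 (-0.46, q = 0.208) or TNFα 4 (-0.49, q = 0.233), and in a fit of controls and TNFα alone q was 0.180. With the slide as a block (-0.49, q = 0.0148) or slide and run (-0.47, q = 0.000329) it passed the q-value but not the fold. With TGFß1 *Srf* differed from control by 0.03 ± 0.20, which turned to -0.082 to -0.0023 under the 3 other corrections or scalings. All TNFα arrays lay below all TGFß1 arrays (-0.64 ± 0.20, q = 0.0450), a call that was lost without TNFα 4, TNFα 9, TGFß1 7 or TGFß1 12.

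The tropomyosins, which coat the filaments, passed the q-value with TGFß1 at less than 1.5-fold, *Tpm3* with 0.48 ± 0.12 (q = 0.0126) and *Tpm4* with 0.39 ± 0.10 (q = 0.0166). All 6 *Tpm3* probes, on several transcripts, were above 0 with TGFß1 (0.15 to 0.58). With TNFα *Tpm3* was 0.29 higher and did not pass the q-value, and 5 of its 6 probes were above 0 (-0.01 to 0.40). *Tpm4* had a mean level of 7.00 in controls and 7.09 with TNFα. Cofilin (*Cfl1*), which severs filaments, and its helper *Wdr1* had 0.30 and 0.08 with TGFß1 and -0.07 and -0.28 with TNFα. Profilin (*Pfn1*), which hands monomers to growing ends, had 0.23 with TGFß1 and -0.06 with TNFα. None of these 3 passed the q-value, and *Cfl1* (0.37, q = 0.0307) and *Pfn1* (0.42, q = 0.0146) did so with TGFß1 when the slide was a block.

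The 7 genes with a CArG box, of which 5 are printed above, did not rise as a group with TGFß1. With TNFα all 7 had a log2 fold-change below 0 (median -0.51), from -1.34 for *Fhl2* to -0.04 for *Actg1*, whereas 11 of the 19 genes tested with a window and no box were below 0 (median -0.07). *Actg1* turned to 0.03 with the slide as a block. Such falls were not particular to TNFα. With IL-1β all 7 were also below 0 (median -0.29), beside 13 of the 19 genes without a box (median -0.07). With IL-6, 6 of the 7 (median -0.11) and 14 of the 19 (median -0.05) were below 0. Each treatment was set against the same controls. With TGFß1, 4 of the 7 were above 0 (median 0.03), and the only called gene among them, *Lima1*, fell, while 16 of the 19 genes without a box were above 0 (median 0.39) and 5 of them were called higher. Beside these sets, the median over all probes was 0.04 for TNFα and 0.07 for TGFß1. The share of all probes past the threshold for TGFß1 was 7.51% upward and 10.4% downward. The difference between the sets was not tested.

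The slide moved the size of several changes but not the direction of the called ones. In the within-slide differences, which were chosen after seeing the data and have no test, *Tns1* with TNFα was -1.34 on slide 1 and -1.51 on slide 2, and with TGFß1 1.80 and 0.86. *Palld* was -0.79 and -0.61 with TNFα and 0.69 and 0.90 with TGFß1, and *Fhl2* was -1.19 and -1.87 with TNFα. *Tns3* was 1.11 and 0.83 with TNFα and 1.71 and 1.55 with TGFß1, *Tes* 1.64 and 2.18, *Nexn* 1.19 and 1.33, *Pdlim7* 0.92 and 1.04, and *Lima1* -0.54 and -0.70 with TGFß1. With the slide as a block all 11 of these calls against control were kept, and with TNFα no gene was added (12.0% of all probes called). With slide and run as blocks, 5 genes were called with TNFα, 10 with TGFß1 and 12 between them, where 15.4%, 22.7% and 16.1% of all probes were called. With the slide alone *Csrp2* and *Fermt2* (0.62, q = 0.00107) were added with TGFß1, so that 8 genes were higher and 1 lower, while 20.3% of all probes were then called (9.84% higher, 10.4% lower). Over the 32 genes, the controls themselves differed: the median deviation from a gene's mean was -0.24 on control 6, -0.01 on control 1 and 0.23 on control 11, and it was 0.19 to 0.40 on the TGFß1 arrays and -0.22 to 0.04 on the TNFα arrays.

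**Figure D4:**
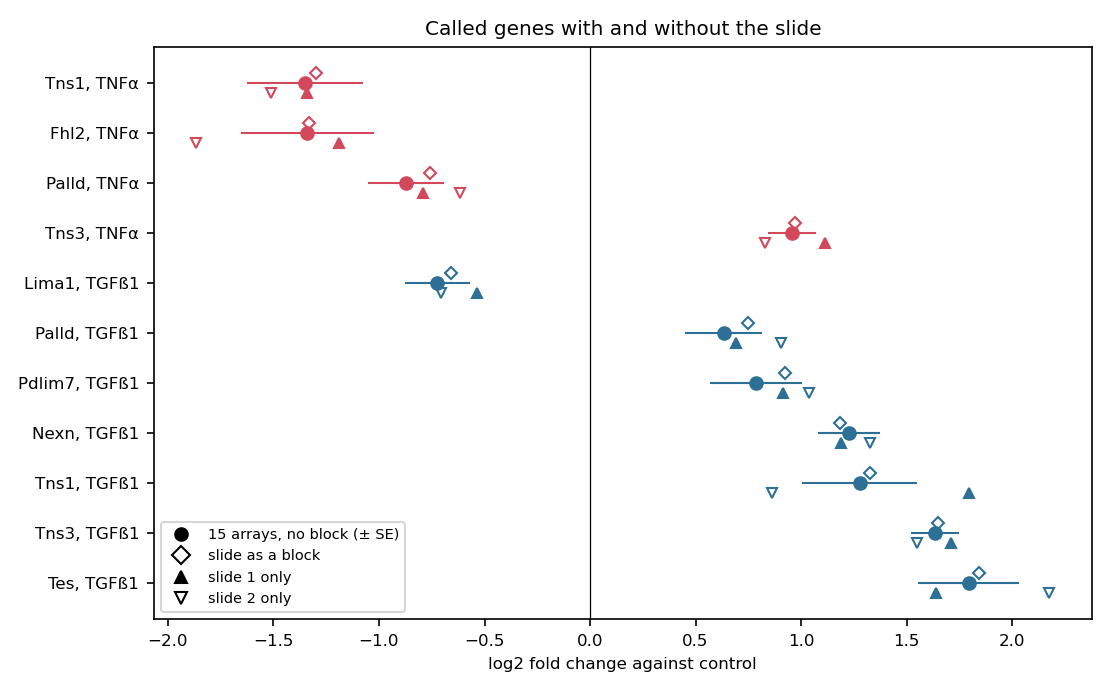
Log2 fold-change against control (x axis) of the 4 genes called with TNFα and the 7 called with TGFß1 (y axis), from all 15 arrays without a block (filled circles, ± SE), with the slide as a block (open diamonds), and as the difference of means on slide 1 (filled triangles up) and slide 2 (open triangles down), each slide holding 1 or 2 arrays a group. All 4 symbols of a gene lie on the same side of 0, and the slides lie farthest apart for *Tns1* with TGFß1, at 1.80 and 0.86.

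No gene of the 32 was called with IL-1β or IL-6, where 0.232% and 0.0580% of all probes were called. In limma's test 1 gene of the 32 had an unadjusted p below 0.05 with IL-1β (*Fhl2*, -0.79 ± 0.32) and 1 with IL-6 (*Tns1*, -0.72 ± 0.27). Of all 29334 probes, 1060 and 934 had such a p, which is a similar share. The median log2 fold-change of the 32 genes was -0.11 with IL-1β and -0.07 with IL-6, beside -0.0001 and 0.0002 over all probes. Without control 11 the medians were 0.0144 and 0.0054, and without control 6 -0.19 and -0.15, so that their sign rested on 1 control. The log2 fold-changes ranged from -0.83 to 0.38 with IL-1β and from -0.72 to 0.23 with IL-6. With slide and run as blocks, *Fhl1* (-0.83, q = 0.0105) and *Fhl2* (-0.79, q = 0.00578) were called lower with IL-1β, and *Fhl1* (-0.68, q = 0.0342) and *Tns1* (-0.72, q = 0.0328) with IL-6. That fit called 0.249% and 0.235% of all probes lower. IL-1β and TNFα, both proinflammatory cytokines, differed in 2 of the 32 genes (6.25%, against 4.69% of all probes, 3.01% higher and 1.68% lower). *Tns1* was higher with IL-1β (1.05 ± 0.27, q = 0.0435), a call lost without IL-1β 10 or any 1 of the TNFα arrays and not made by its second probe (0.45). *Tns3* was lower (-0.90 ± 0.11, q = 0.000657), a call made by 2 of its 3 probes.

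Related genes outside the 33 were taken from 4 wider lists with 112 genes tested. With TGFß1, 19 were called higher and 13 lower, and with TNFα 5 higher and 14 lower. None was called with IL-1β or IL-6, near the share of all probes called (0.232% and 0.0580%). Of all probes 7.51% were called higher and 10.4% lower with TGFß1 and 4.09% and 5.96% with TNFα, the background for each list that follows. Among 34 other adhesion plaque genes, 6 rose and 5 fell with TGFß1, at a median of 0.24 (log2 fold-change). The kinase *Ptk2b* (PYK2, a relative of focal adhesion kinase, 1.91 ± 0.25) and β-parvin (*Parvb*, 1.90 ± 0.40) rose, and *Sorbs3*, which encodes the vinculin partner vinexin, fell (-1.84 ± 0.30). With TNFα 1 rose and 3 fell, led by *Tns2*, *Sorbs3* (-1.34 ± 0.30) and *Lims2* (PINCH2, -1.27 ± 0.30).

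Among 16 other LIM and PDZ-LIM genes, 2 rose and 4 fell with TGFß1 and 7 fell with TNFα, with medians of -0.19 and -0.50. *Prickle1* fell with both (-2.87 ± 0.33 with TGFß1 and -2.07 ± 0.33 with TNFα). With TNFα the other large falls were *Ldb3*, a PDZ-LIM gene of the muscle Z-disc (-2.48 ± 0.47), and *Crip1* (-1.41 ± 0.21), and with TGFß1 *Ablim1* (-1.496 ± 0.32) and *Pdlim2* (-1.32 ± 0.28). Of 47 other actin binding and turnover genes, 6 rose and 3 fell with TGFß1 and 3 rose and 3 fell with TNFα. With TGFß1 the muscle α-actinin *Actn3* (-1.23 ± 0.30) and profilin 2 (*Pfn2*, -1.03 ± 0.20) fell, and with TNFα *Myoz1* (1.83 ± 0.42) and coronin 1A (*Coro1a*, 1.55 ± 0.32) rose.

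Of 15 SRF cofactors and classical targets of SRF, MRTF and YAP, 5 rose and 1 fell with TGFß1, with a median of 0.29. *Ccn2* (connective tissue growth factor) rose 8.46-fold (3.08 ± 0.40, q = 0.000204) and *Ankrd1* 3.75-fold. With TNFα *Fos* fell (-0.98 ± 0.15) and *Junb* rose (0.70 ± 0.20). Chosen after their values were seen, *Fos* also fell with TGFß1 (-1.29 ± 0.15), and *Mrtfa*, the SRF cofactor, rose (0.74 ± 0.18, q = 0.0112).

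Some markers of muscle, but not all, were higher with TGFß1. The summed level of 7 striated muscle markers was 1.71 to 2.16 in controls, 2.03 to 3.02 with TNFα and 5.29 to 5.71 with TGFß1. *Tnnt2*, the brightest of them with TGFß1, had a mean level of 0.80 in controls, 1.24 with TNFα and 5.35 with TGFß1. *Acta1* had 0.54, 1.58 and 1.78. *Myod1*, *Myog*, *Des* and *Ckm* were well above background on no array and *Myh3* on 1. The summed level of 5 smooth muscle markers overlapped between controls (7.24 to 8.48), TNFα (7.90 to 8.68) and TGFß1 (7.95 to 8.49). *Myh11* was above background on no array. In controls, with TNFα and with TGFß1, *Cnn1* had mean levels of 0.51, -0.41 and 2.44. *Tagln* had 2.57, 2.16 and 4.26, and *Smtn* 3.27, 3.48 and 3.92. *Acta2*, the brightest of the 5, had 7.67, 8.10 and 8.06, so that its mean was no higher with TGFß1 than with TNFα. The summed level of 6 epithelial markers was -3.05 to -1.999 in controls, -3.48 to -3.13 with TNFα and -1.98 to -0.61 with TGFß1, with *Cdh1* and *Krt5* above background on no array. That of 7 macrophage or leukocyte markers overlapped between controls (3.43 to 4.48), TNFα (3.67 to 4.57) and TGFß1 (3.65 to 4.43). The part of other cell types in the changes of the adhesion genes was not tested.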

How the data were processed

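MEFs of 5 conditions were measured on 15 1-color arrays, 3 a condition, grouped by their labels; the label numbers form 3 runs of 5 arrays. The authors extracted the spots with Agilent Feature Extraction 10.7.3.1, and the deposited intensity is the processed signal of each spot, background-subtracted and not normalized between arrays. A further deposited table repeats these intensity values (largest difference 0). Here, spots marked as non-uniform or as outliers were left out, spots of one probe were averaged as log2 intensity, and each array was then centred on its 75th percentile. Probes well above background (at least 0.5 of their spots) on every array of at least 1 group were tested, 29334 of 56605. No spot was saturated. From 48.3% to 54.9% of probes were well above background per array, and precision is limited by having 3 arrays a group.

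Gene names came from RefSeq accessions (33767 probes matched, assembly GRCm38.p6). limma 3.58.1 in R 4.3.3 fitted all 15 arrays without a covariate, with Benjamini-Hochberg adjustment. The script was tested on simulated data. Genes were named by a rule: all members, array values for *Actb*, *Actg1*, *Srf* and, against control, for up to 5 called genes with the largest change and no overlap with the controls, and up to 3 called genes of each wider list, of which some are not reported here. The members and lists were chosen with earlier results of these data known. The study describes the replicates as independent experiments, which the labels do not tie to arrays. Alternatives were other background corrections, scalings, filters, slide and run blocks, fewer groups, all probes of a gene, the series value table and each array left out. Since the scanner files hold no mean signal, the normexp correction (offset 50) used the median signal.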

Additional observations from a re-analysis of the deposited data

Results flagged for a closer look

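*Tns1* and *Palld* were called in opposite directions against the same controls, lower with TNFα and higher with TGFß1, and the test between the cytokines was past the threshold for each. The log2 difference of TNFα from TGFß1 was -2.63 for *Tns1* and -1.505 for *Palld*, and all 3 TNFα arrays lay below all 3 TGFß1 arrays. On slide 1 the differences were -3.14 and -1.48 and on slide 2 -2.37 and -1.52. No other member was called in both comparisons with opposite signs, and groups of 3 arrays are too small for a test of single outlying arrays.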

How the results depend on the processing

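Having 3 arrays a group limits these calls, and every count below is out of 32 genes. Each called difference of a member kept its sign under all alternatives. Without the fold criterion 14 genes passed with TGFß1, 13 of them higher. With TGFß1 the median log2 fold-change was 0.17 after quantile normalization, and over all probes the calls split into 2202 higher and 3048 lower, or 1700 and 3721 when the percentile was taken over probes detected on all arrays. With slide and run as blocks 2 genes were called lower with IL-1β and 2 with IL-6. Within slide 2 the median was 0.51 with TGFß1, 0.12 with IL-1β and 0.20 with IL-6, and within slide 1 it was -0.16 for IL-1β against TNFα. For that comparison 1 gene was called without a filter, with only the groups compared and control, or over all probes of a gene. The leave-one-out medians ranged from -0.22 to 0.0051 with TNFα, 0.23 to 0.47 with TGFß1, -0.19 to 0.0144 with IL-1β and -0.15 to 0.0054 with IL-6. With 1 array left out, called genes numbered 3 to 5 with TNFα, 5 to 9 with TGFß1, 5 to 8 between TNFα and TGFß1 (5 without TNFα 9; medians -0.53 to -0.33) and 1 to 2 between IL-1β and TNFα (1 without any 1 TNFα array or IL-1β 10). *Palld* lost its call with TGFß1 under quantile normalization (q = 0.0605), the other percentile (0.53), no filter (q = 0.0607) and fewer groups (q = 0.0979), and with TNFα under fewer groups (q = 0.0673); *Srf* between the cytokines lost it under the same 4 settings. Uncalled values near 0 changed sign. *Actg1* with TNFα turned to 0.0285 (slide) and 0.0416 (slide and run), and ranged from -0.17 to 0.0812 with 1 array left out, from -0.24 to 0.0116 with IL-1β and from -0.22 to 0.0355 with IL-6. *Srf* with TGFß1 turned to -0.0023 (normexp), -0.082 (quantile) and -0.0687 (other percentile), and ranged from -0.13 to 0.18 with 1 array left out. *Actb* with IL-1β turned to 0.0086 (quantile, and the other percentile) and ranged from -0.0713 to 0.0974, and with IL-6 it turned to -0.0101 (quantile) and ranged from -0.0535 to 0.12. The causes were not tested. No label states a pairing of arrays, although the label numbers form 3 runs of 5, each with 1 array of every group. The fits without run as a block ignore any pairing by run, and none used run alone. Run was a block only in the fit with slide and run together. That fit called 5 genes with TNFα, 10 with TGFß1 and 12 between them.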
